A study of Arabidopsis thaliana with 6 samples.

Results

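The CBF cold regulators and their COR targets were followed here as 10 genes of *Arabidopsis thaliana*, taken by locus from a table of 19616 genes. The regulators were CBF1 (AT4G25490), CBF2 (AT4G25470) and CBF3 (AT4G25480). The targets were COR15A (AT2G42540), COR15B (AT2G42530), KIN1 (AT5G15960), KIN2 (AT5G15970), RD29A (AT5G52310), COR47 (AT1G20440) and ERD10 (AT1G20450). RNA-Seq had been made from wild-type Col-0 seedlings, the common laboratory ecotype, in 3 libraries of seedlings treated with *Priestia megaterium* YC4-R4 suspended in 0.45% NaCl and 3 libraries of control seedlings given the same NaCl solution without bacteria. All 6 came from entire seedlings ground together, aged 13 days after germination and collected 7 days after treatment (DAT), and the labels name no cold exposure after the stratification of the seed. The 10 genes were chosen by their function and by the treated and control counts of these same libraries, which were already known. Their differences between the groups are therefore given as a description, and no p-value is printed for them. Where these genes are set against the limits of a test below, the outcome is part of that description and not independent evidence.

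CBF proteins are transcription factors of the AP2/ERF family. They bind the C-repeat, a short promoter element with the core CCGAC, and thereby switch on the COR (cold-regulated) genes, which encode protective proteins of the chloroplast, cytosol and membranes. In cold plants the CBF genes rise first and the COR genes follow within hours. The clock, touch and light also set the level of CBF transcripts at normal growth temperature, and several COR genes respond to abscisic acid and drought without CBF proteins.

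In treated seedlings CBF1 and CBF2 stood far below their control levels, CBF3 lay lower with more spread, and the 7 COR genes had log2 fold changes within -0.37 to 0.32. Counts were scaled to CPM, the reads of a gene per 1000000 reads of its library, with TMM factors, and a gene counted as higher or lower where it met 2 limits in edgeR's quasi-likelihood test, a p of at most 0.05 after Benjamini-Hochberg adjustment over 19615 genes and a fold change of at least 1.5. All adjusted p below are of this kind. By these limits 2 of the 10 genes were lower and 0 were higher, where 3.27% of all tested genes passed in either direction (1.54% lower, 1.73% higher). By the adjusted p alone CBF1 and CBF2 were lower and RD29A was higher, where 4.52% of all tested genes were lower and 5.1% higher. RD29A missed that limit with the replicate number as a block, without treated library 3 and without any 1 of the control libraries. All 10 genes were in the table and tested. CBF1 was below a CPM of 1 in every treated library, so it was in the table only through its control values. CBF3 reached a CPM of 1 in treated library 3 alone of the treated libraries and in every control library, so its place in the table may also have depended on its control values. Total counts ranged from 15292377 to 21904205 in treated libraries and from 10804936 to 20040520 in control libraries. The median log2 fold change of all tested genes was -0.00489. Of 5 shoot markers 0 and of 6 root markers 1 (the root hair expansin EXPA7, higher) passed both limits, and none of these markers was at 0 in any library. The root markers summed to 971.9 to 1015 CPM in treated libraries and to 850.8 to 893.2 CPM in control libraries, nearly all of it from PYK10 (917 to 972 CPM in treated and 805 to 840.1 CPM in control libraries). Of the other root markers, CASP1, CASP2, TIP2;3 and MYB36 had overlapping groups. The shoot markers summed to 15690 to 23590 CPM in treated libraries and to 16230 to 21300 CPM in control libraries. The part of these tissue levels in the results was not tested. In such mixed tissue, fewer cells of a type and less RNA per cell cannot be told apart.

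The C-repeat cores that separate the 2 sides of this pathway are shown first, because they are what makes a COR gene a candidate CBF target. Sequences and positions are those of the RefSeq genome TAIR10.1. In the 500 bases before the coding start, CCGAC (searched on both strands) occurred in 7 of 7 COR genes, with 13 matches, and in 0 of 3 CBF genes. The same window held it in 25.4% of 19174 tested genes. All 13 matches lay on the strand of the gene and were preceded by A or G, the form ACCGAC or GCCGAC, which 14.1% of these windows held. The window was chosen after the sequences had been seen. In the 500 bases before the annotated start, COR15A, COR15B and COR47 also held a core on the opposite strand. The annotated starts of these genes lie 212 to 1209 bases before the coding start in the COR genes, so that many of the cores fall inside the annotated 5′ leader. In the narrower window from 250 bases before to 50 bases after the annotated start, 2 of 7 COR genes (COR15A and RD29A) held the core, against 16.1% of all windows. Each line below gives 29 bases with the core in capitals, read 5′ to 3′ on the strand of the gene.
COR15A, chr2:17712393-17712421, minus strand, 443 bases before the coding start: ttaacttgttggCCGACatacatttgttt
COR15A, chr2:17712216-17712244, minus strand, 266 bases before the coding start: acaatttcatggCCGACctgctttttttt
COR15B, chr2:17710122-17710150, minus strand, 265 bases before the coding start: acaacttgatggCCGACctcttttttctt
KIN1, chr5:5209802-5209830, plus strand, 178 bases before the coding start: gataaatagctaCCGACataaggcaaaac
KIN2, chr5:5211769-5211797, plus strand, 185 bases before the coding start: aataaaaagctaCCGACataaggcaaaaa
RD29A, chr5:21240565-21240593, plus strand, 352 bases before the coding start: aatagacatggaCCGACtactaataatag
RD29A, chr5:21240615-21240643, plus strand, 302 bases before the coding start: ataaatatcataCCGACatcagtttgaaa
RD29A, chr5:21240672-21240700, plus strand, 245 bases before the coding start: aaagatatactaCCGACatgagttccaaa
RD29A, chr5:21240709-21240737, plus strand, 208 bases before the coding start: aaaaagatcaagCCGACacagacacgcgt
COR47, chr1:7085916-7085944, minus strand, 268 bases before the coding start: gatattcatctaCCGACttcaagaaataa
ERD10, chr1:7089369-7089397, minus strand, 278 bases before the coding start: gatattcatccaCCGACcgaccgacgtaa
ERD10 held 2 further cores after the one shown, at 274 and 270 bases, each overlapping the core before it. The neighboring copies share much of the sequence around the core, as the lines of KIN1 and KIN2 and those of COR47 and ERD10 show.

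Other motifs were spread over both sides of the pathway. The G-box CACGTG, which bHLH and bZIP factors bind, lay before the coding start in CBF1, CBF2, COR15A, COR15B, KIN1 and KIN2, against 10.3% of all windows. The genes differed by window. The narrower window around the annotated start held it in CBF2, COR15A and KIN2 (8.73% of all windows). The 500 bases before the annotated start held it in CBF2, COR15A and ERD10 (10.2% of all windows). The motif CCGCGT, bound by the CAMTA calmodulin-binding activators, lay in CBF2, COR47 and ERD10 (3.93% of all windows). In both windows set by the annotated start only CBF2 held it. The evening element AAAATATCT, bound by clock factors, lay in CBF3, COR15A, COR15B and KIN2 (4.0% of all windows). In the 500 bases before the annotated start it lay in CBF1 and CBF2 instead (4.53% of all windows). The narrower window around the annotated start held it in 0 of the 10 genes (3.06% of all windows). The shorter ACGTG, the core of the abscisic acid response element and contained in each G-box, lay in 9 of the 10 genes (35.2% of all windows). It lay in 4 of the 10 in the narrower window (27.7% of all windows). In the 500 bases before the annotated start it lay in 6 (36.0% of all windows). These matches are a description of the letters, and binding was not measured. CBF2 alone among the CBF genes had both a G-box and a CAMTA motif within 250 bases of its annotated start. That promoter is printed with both in capitals, the CAMTA motif running into an overlapping CGCGTT, from the minus strand.
CBF2, chr4:13016236-13016485: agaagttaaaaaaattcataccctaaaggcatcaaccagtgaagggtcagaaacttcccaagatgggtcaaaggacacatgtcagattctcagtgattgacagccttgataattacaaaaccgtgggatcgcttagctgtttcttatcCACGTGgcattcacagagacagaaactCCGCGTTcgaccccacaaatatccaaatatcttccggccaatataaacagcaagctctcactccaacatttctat

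**Figure D1:**
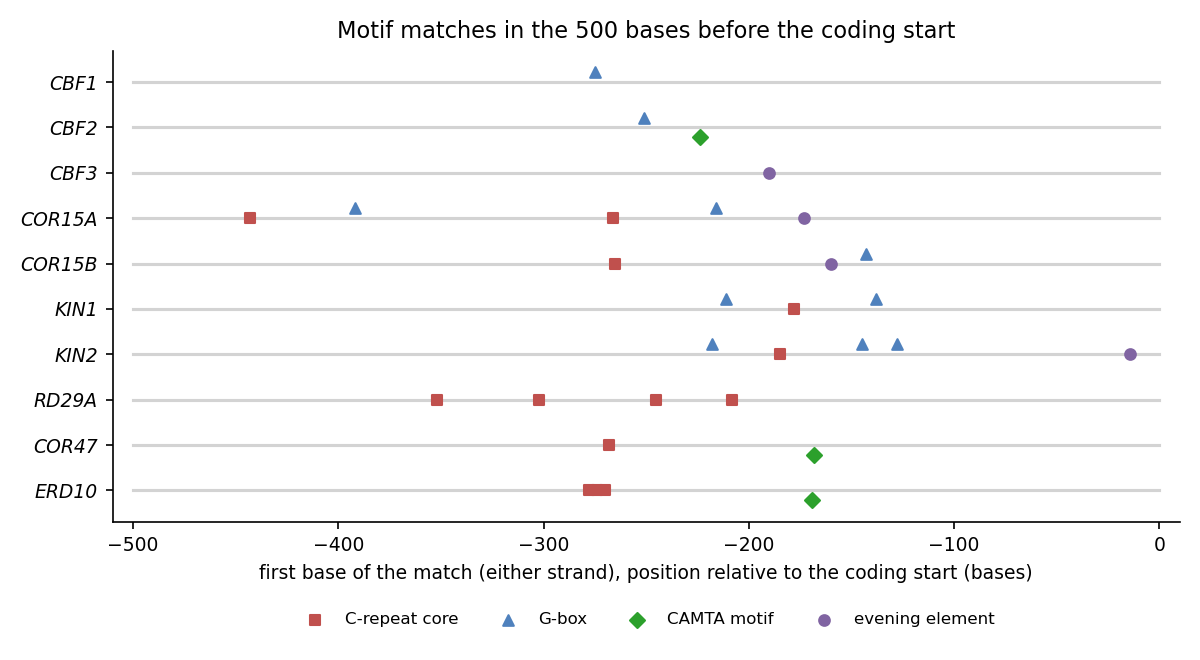
Positions of 4 motifs, searched on both strands, in the 500 bases before the coding start of the 10 genes, as distance of the first base of each match from the coding start. Squares (C-repeat core) appear in all 7 COR genes and in none of the 3 CBF genes.

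The CBF genes lie side by side on the minus strand of chromosome 4 and have a single exon each. CBF2 spans 13015250 to 13016235, CBF3 13018010 to 13019400 and CBF1 13021780 to 13022996, with 1774 bases between CBF2 and CBF3 and 2379 bases between CBF3 and CBF1. Their coding sequences were 86.9% to 87.5% identical, and the longest identical run, between CBF1 and CBF2, was 68 bases. Of all 50-base stretches of the transcripts, 2.48% in CBF1, 3.95% in CBF2 and 0.596% in CBF3 occurred elsewhere in the genome, and of 75-base stretches 0 did. No source used here states the read length or the counting of reads that match several places, so some reads of these copies may have been lost or exchanged. CBF3 also overlaps an annotated noncoding RNA, AT4G07385, with which it may share reads.

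CBF1, an activator of freezing tolerance genes, showed the widest difference of the 10. Its levels were 0.816, 0.578 and 0.546 CPM in treated libraries (18, 9 and 11 reads), against 6.84, 6.01 and 5.29 CPM in control libraries (75, 73 and 106 reads). Every treated library thus lay far below every control library. The log2 fold change was -3.17 (standard error 0.22), with means of 0.647 ± 0.148 CPM in treated and 6.05 ± 0.772 CPM in control seedlings (SD, n = 3 each), so that the control mean was 9.35 times the treated mean. Of the 19615 genes tested, 0 had a lower log2 fold change. That rank is a description, since CBF1 was chosen with these counts known and was in the table only through its control values. Its treated levels rest on few reads.

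CBF2, which in mutant studies also restrains CBF1 and CBF3, was the most abundant of these regulators in both groups. It had 3.08, 3.08 and 3.08 CPM in treated libraries (68, 48 and 62 reads), against 11.3, 9.63 and 8.44 CPM in control libraries (124, 117 and 169 reads). The treated libraries were almost equal, the control libraries spread over a factor of 1.34, and the groups did not overlap. The log2 fold change was -1.65 (standard error 0.15), and the control mean of 9.79 ± 1.44 CPM was 3.18 times the treated mean of 3.08 ± 0.00357 CPM (SD, n = 3 each).

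CBF3, the third activator of the cluster, had 0.907, 0.706 and 1.59 CPM in treated libraries (20, 11 and 32 reads), against 2.097, 2.22 and 2.098 CPM in control libraries (23, 27 and 42 reads). The control libraries agreed closely, while treated library 3 lay nearer to them than the other treated libraries did. The groups did not overlap, and neither did those of CBF1 and CBF2, where 13.8% of all tested genes had every treated library below every control library. The log2 fold change of CBF3 was -0.97 (standard error 0.28), and it missed the limit on the adjusted p. It passed both limits in 3 of 12 alternative settings. These were the fit without treated library 3 (log2 fold change -1.37), limma-voom (-1.04) and library size alone as the scale (-0.98). Among the settings in which it missed were DESeq2 (-0.98), the replicate number as a block (-0.96) and the loss of any other 1 library.

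**Figure D2:**
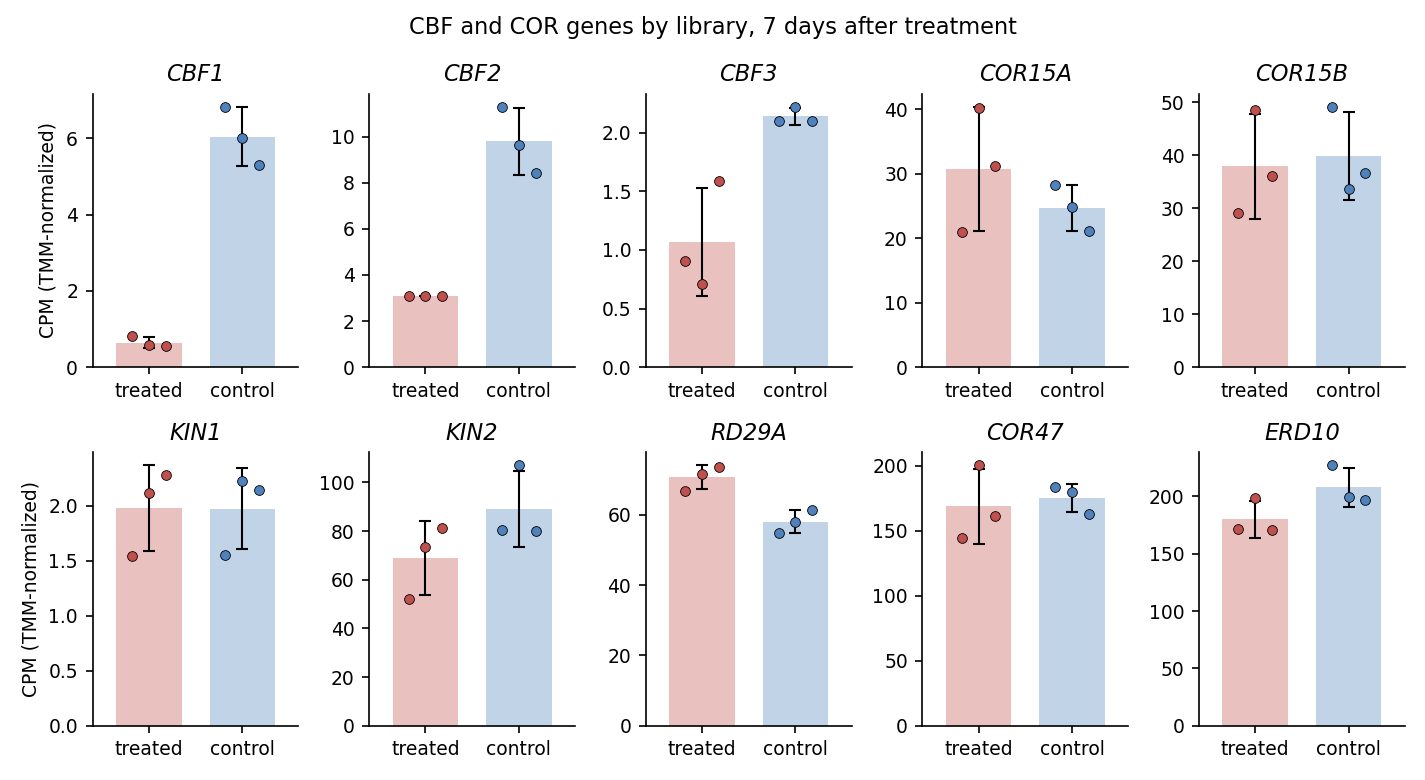
TMM-normalized CPM of the 10 genes (linear axes) in each of the 3 treated and 3 control libraries. For CBF1 the treated points lie between 0.546 and 0.816 CPM, below control points of 5.29 to 6.84 CPM, while the points of most COR genes overlap.

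Summed over the CBF genes, which keeps any reads exchanged among them, the level was 4.81, 4.37 and 5.21 CPM in treated libraries (106, 68 and 105 reads), against 20.2, 17.9 and 15.8 CPM in control libraries (222, 217 and 317 reads). The control mean of 18.0 ± 2.21 CPM was 3.75 times the treated mean of 4.80 ± 0.423 CPM (SD, n = 3 each). The make-up of the sum also differed between the groups. Per kb of transcript, CBF1 gave 15.1%, 11.6% and 9.52% of the summed level in treated libraries, against 30.2%, 30.3% and 30.2% in control libraries. CBF2 gave 70.3%, 76.1% and 66.2% in treated libraries, against 61.7%, 59.9% and 59.4% in control libraries. CBF3 gave 14.7%, 12.4% and 24.2% in treated libraries, against 8.11%, 9.80% and 10.5% in control libraries. Thus the control libraries had nearly the same mixture, with CBF1 second, and in the treated libraries CBF1 took a smaller share in each.

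**Figure D3:**
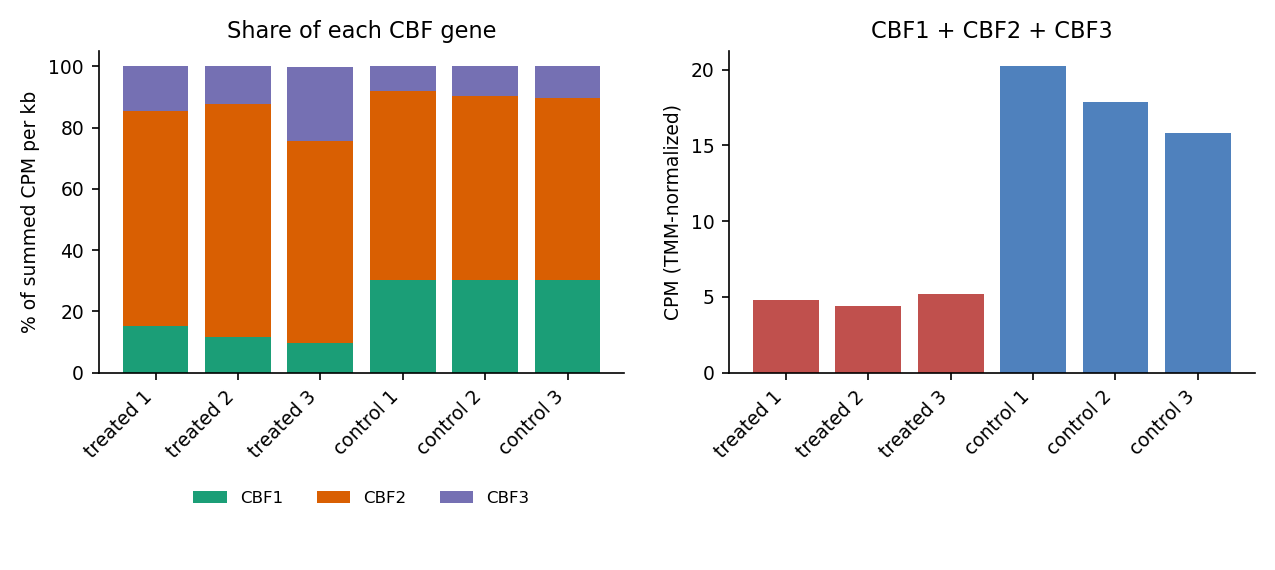
Share of CBF1, CBF2 and CBF3 in their summed CPM per kb of transcript, in percent, for each library, treated libraries left and control libraries right. CBF1 makes up 9.52% to 15.1% in treated libraries and 30.2% to 30.3% in control libraries.

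Of the relatives of the CBF genes elsewhere in the genome, DDF1, CBF4 and DREB2A had lower levels, and DREB2B and DREB2C had overlapping groups. DDF1, a dwarfing factor of the same subfamily (62.2% to 64.6% of coding bases identical to the CBF genes), had 0.181, 0.0642 and 0.397 CPM in treated libraries (4, 1 and 8 reads), against 1.82, 1.40 and 2.20 CPM in control libraries (20, 17 and 44 reads). Its log2 fold change was -3.01 (standard error 0.42). CBF4, described as a drought-responsive copy on chromosome 5, had 0.318, 0.193 and 0.298 CPM in treated libraries (7, 3 and 6 reads), against 1.28, 1.07 and 0.699 CPM in control libraries (14, 13 and 14 reads). Its log2 fold change was -1.77 (standard error 0.40), and its call as lower ended without control library 2. Both genes were measured on few reads, below a CPM of 1 in every treated library. Like CBF1 they were in the table only through their control values and could not have been called higher, so their values are a description. For DREB2A, a drought and heat factor that binds a related element, the log2 fold change was -0.74 (adjusted p = 0.00854, edgeR), a call that ended without control library 3. DREB2B and DREB2C, of the same group, had log2 fold changes of -0.01 and -0.18.

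Among 25 genes known to act on CBF transcription, 1 was lower and 0 were higher, with a median log2 fold change of -0.09. The lower gene was MYB15, which represses CBF genes. It had 7.39, 8.80 and 7.94 CPM in treated libraries, against 22.7, 17.9 and 16.0 CPM in control libraries, a log2 fold change of -1.22 (adjusted p = 0.000187, edgeR). The light receptor gene PHYB (0.39), the activator gene CAMTA3 (-0.30) and the kinase gene MPK3 (-0.30) passed the adjusted p without reaching the fold limit. ICE1, the bHLH activator of CBF3, and its paralog ICE2, both named after their values were seen, had log2 fold changes of 0.17 and 0.12 with overlapping groups.

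Transcription factors that rise together with the CBF genes in the first hours of cold were lower more often than not. Of the 13 tested, 8 were lower and 0 higher, with a median log2 fold change of -0.76, where 1.54% of all tested genes were lower. The zinc finger gene SZF2 (-0.88), the ethylene response factors ERF6 (-1.13) and ERF5 (-1.05) and WRKY33 (-0.66) had the smallest p, with adjusted p from 1.83e-05 to 0.000195 in edgeR's test. Many of these genes also respond to touch and wounding. Of 11 genes of that rapid response, 8 were lower and 0 higher (median -0.83), beside the same 1.54% of all tested genes. In all 11 every treated library lay below every control library, a pattern that 13.8% of all tested genes had. The AP2/ERF factors ORA47 (-2.01) and RRTF1 (-2.70), WRKY40 (-1.23) and the zinc finger gene SZF1 (-0.89) had the smallest p, with adjusted p from 2.28e-06 to 0.00012 in edgeR's test. These 11 genes summed to 860.9 to 990.4 CPM in treated libraries and to 1390 to 1611 CPM in control libraries. Their part in the lower CBF levels was not tested.

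Clock genes, whose proteins set the daily rhythm of CBF transcripts, moved as well. Of 13 clock genes, 4 were higher and 0 lower, with a median log2 fold change of -0.0044. The higher genes were the morning factors LHY (0.66), CCA1 (0.67), RVE1 (0.71) and RVE8 (0.66), with adjusted p from 0.000136 to 0.00833 in edgeR's test. By the adjusted p alone 3 clock genes were lower, under the fold limit. These were PRR7 (-0.26), LUX (-0.33) and TOC1 (-0.28), repressors of the day and evening, named after their values were seen. In 5 clock genes every treated library lay below every control library and in 4 above, beside 13.8% and 14.5% of all tested genes. The call of RVE8 ended without treated library 2 or control library 3. CCA1 and LHY are known as activators of CBF genes in the morning. No source used here states the hour of collection, and the part of the clock in the CBF levels was not tested.

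**Figure D4:**
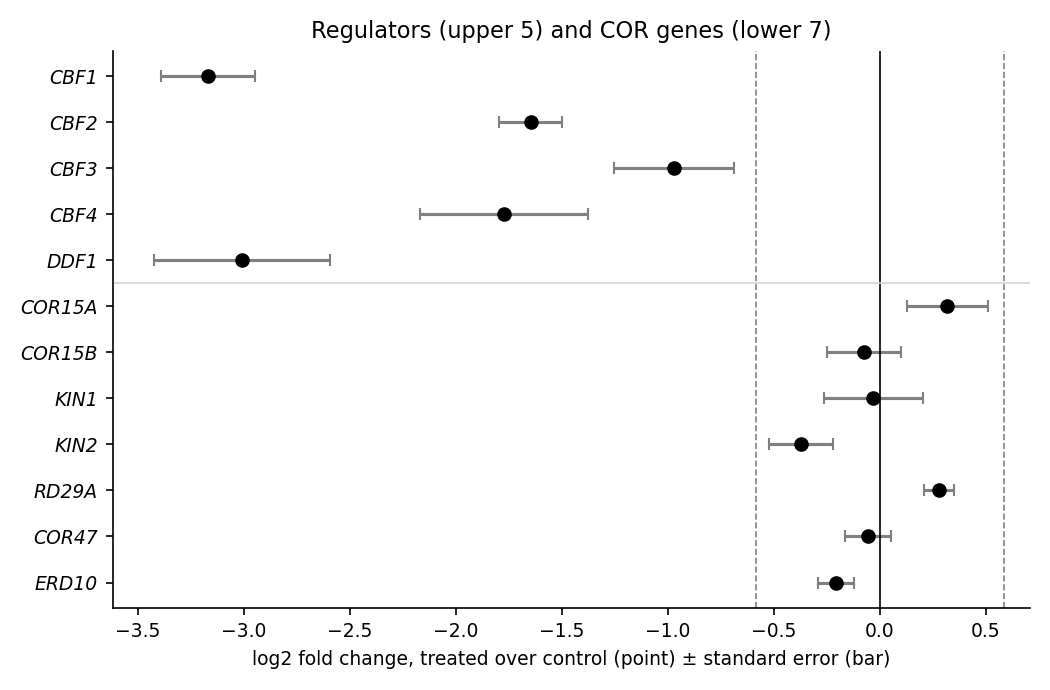
log2 fold change (treated over control) with standard error for 5 regulators (CBF1 to CBF3, CBF4 and DDF1) and the 7 COR genes, with dashed lines at a fold of 1.5. The regulators lie between -3.17 and -0.97, and the COR genes between -0.37 and 0.32.

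None of the 7 COR genes passed both limits by edgeR's quasi-likelihood test, by DESeq2 or by limma-voom, and 3 had an unadjusted p under 0.05, as 4571 of the 19615 tested genes did. That count is a description of genes chosen with these values known. Their log2 fold changes ran from -0.37 to 0.32, with a median of -0.06, beside a median of -1.65 for the CBF genes. The groups of 6 COR genes overlapped, and RD29A alone was higher in every treated library, where 14.5% of all tested genes had such a pattern. The summed level of the COR genes was 486.3, 635.4 and 556.2 CPM in treated libraries, against 625.0, 605.2 and 561.3 CPM in control libraries. The means of 559.3 ± 74.6 CPM in treated and 597.2 ± 32.6 CPM in control seedlings (SD, n = 3 each) differed by less than the SD of the treated group.

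COR15A and COR15B encode small stroma proteins of the chloroplast that shield membranes during freezing. They lie 7 bases apart on the minus strand of chromosome 2 (COR15A 17710441 to 17712330, COR15B 17708593 to 17710433), with 83.8% identical coding bases. COR15A had 20.96, 40.2 and 31.1 CPM in treated libraries, against 28.2, 24.8 and 21.1 CPM in control libraries. Treated libraries 2 and 3 were above all control libraries and treated library 1 was below them. The log2 fold change of COR15A was 0.32 (standard error 0.19, 95% interval -0.10 to 0.74). Without treated library 1 it was 0.54, which met the limit on the adjusted p but not that on the fold. Without treated library 2 it was 0.09 and met neither. COR15B had 29.0, 48.5 and 36.2 CPM in treated libraries, against 49.2, 33.6 and 36.7 CPM in control libraries, and its log2 fold change was -0.07 (standard error 0.17, 95% interval -0.45 to 0.30). The groups of COR15B overlapped over most of their range. COR15B also overlaps the neighboring gene AT2G42520 and may share reads with it.

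KIN1 and KIN2 encode small hydrophilic proteins and are the most similar pair of the set, with 191 of 201 coding bases identical and an identical run of 58 bases. Both have 3 exons on the plus strand of chromosome 5 (KIN1 5209717 to 5210826, KIN2 5211719 to 5212743). KIN1 had 1.54, 2.12 and 2.28 CPM in treated libraries (34, 33 and 46 reads), against 1.55, 2.22 and 2.15 CPM in control libraries (17, 27 and 43 reads). Its groups covered nearly the same range, with a log2 fold change of -0.03 (standard error 0.23, 95% interval -0.54 to 0.48). KIN2 had 52.1, 73.4 and 81.3 CPM in treated libraries, against 80.4, 107 and 79.9 CPM in control libraries, a log2 fold change of -0.37 (standard error 0.15, 95% interval -0.70 to -0.04). Treated libraries 1 and 2 were below all control libraries and treated library 3 lay among them. Per kb of transcript KIN2 exceeded KIN1 37.4, 38.3 and 39.3 times in treated libraries and 57.3, 53.3 and 41.1 times in control libraries. Of all 50-base stretches, 0.128% of the KIN1 transcript and 0.143% of the KIN2 transcript occurred elsewhere in the genome, and of 75-base stretches 0 did.

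RD29A, a hydrophilic stress protein gene that responds to cold, drought and abscisic acid, lies on the plus strand of chromosome 5 (21240717 to 21243644, 4 exons). It had 66.9, 71.7 and 73.7 CPM in treated libraries, against 54.8, 58.1 and 61.5 CPM in control libraries. Every treated library was higher than every control library, and the spread within groups was small. The log2 fold change was 0.28 (standard error 0.07, 95% interval 0.12 to 0.44), and the treated mean of 70.8 ± 3.45 CPM was 1.22 times the control mean of 58.1 ± 3.35 CPM (SD, n = 3 each), under the fold limit. RD29A had 4 C-repeat cores in the lines above, the most of the set. Its neighbor RD29B, which responds mainly to abscisic acid and salt and was named after its values were seen, had 0.635, 1.03 and 1.29 CPM in treated libraries, against 0.365, 0.494 and 0.849 CPM in control libraries, with overlapping groups (log2 fold change 0.65).

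COR47 and ERD10 encode acidic dehydrins, proteins that stay unfolded and protect membranes and enzymes when cells lose water. They are neighbors on the minus strand of chromosome 1 (COR47 7084409 to 7086873, ERD10 7087903 to 7089606), with 81.5% identical coding bases. COR47 had 144, 201 and 161 CPM in treated libraries, against 183, 180 and 163 CPM in control libraries, a log2 fold change of -0.06 (standard error 0.11, 95% interval -0.29 to 0.18). The treated libraries of COR47 surrounded the control libraries. ERD10 had 172, 199 and 170 CPM in treated libraries, against 227, 200 and 197 CPM in control libraries, a log2 fold change of -0.21 (standard error 0.09, 95% interval -0.39 to -0.02). For ERD10 treated library 2 lay within the control range and the other treated libraries lay under it. The intervals of the COR genes cover single genes and were not adjusted for the number of genes.

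Ordered by mean level per kb of transcript, the dehydrins and KIN2 came first in both groups. In treated seedlings ERD10 (111.7 ± 9.998 CPM per kb), KIN2 (91.9 ± 20.1) and COR47 (72.7 ± 12.5) were followed by RD29A (26.6 ± 1.30), COR15B (23.9 ± 6.21), COR15A (19.9 ± 6.24), CBF2 (3.13 ± 0.00362), KIN1 (2.39 ± 0.470), CBF3 (0.767 ± 0.332) and CBF1 (0.532 ± 0.121). In control seedlings the order was ERD10 (128.9 ± 10.4 CPM per kb), KIN2 (118.9 ± 20.8), COR47 (75.6 ± 4.71), COR15B (25.2 ± 5.23), RD29A (21.8 ± 1.26), COR15A (16.0 ± 2.30), CBF2 (9.93 ± 1.46), CBF1 (4.97 ± 0.634), KIN1 (2.38 ± 0.444) and CBF3 (1.54 ± 0.0516), each as mean ± SD with n = 3. In treated seedlings the libraries of neighbors overlapped between ERD10 and KIN2, KIN2 and COR47, RD29A and COR15B, COR15B and COR15A, and CBF3 and CBF1. In control seedlings they overlapped between ERD10 and KIN2 and between COR15B and RD29A. CBF1 thus stood eighth in control seedlings and last in treated seedlings, where its libraries overlapped those of CBF3.

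Most COR genes varied more within groups than the median gene of their range of level. The median SD of their log2 CPM was 0.291 in treated and 0.209 in control libraries, beside 0.111 in treated and 0.113 in control libraries for 17282 tested genes in the same range of mean level. The exceptions below those medians were RD29A in both groups and COR47 in control libraries. For the CBF genes it was 0.289 in treated and 0.183 in control libraries, beside 0.196 in treated and 0.211 in control libraries for 3543 genes of their range. Much of the COR spread was shared within a library. Treated library 1 was below its group mean in 7 of 7 COR genes (on average by -0.275 on the log2 scale) and the lowest of its group in 6. Treated library 2 was above the mean in all 7 (on average by 0.211) and the highest in 4. The control libraries had average deviations of -0.0599 to 0.0334, with control library 1 the highest in 4 genes and control library 3 the lowest in 4. The genes lie in part in tandem and share regulators, so these 7 are not independent.

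Cold genes outside the set were mixed. Of 19 further genes that cold induces, 5 were lower and 1 was higher, with a median log2 fold change of -0.16, and the count of lower genes was 3 without treated library 3. By the smallest p these were DIN10, a raffinose synthase-like gene (-1.25), COR413IM1, of the chloroplast inner membrane (-0.78), and ERD7, of dehydration response (-0.59), with adjusted p from 1.86e-06 to 0.000178 in edgeR's test. The call of ERD7 ended without treated library 3 or control library 2. The remaining called genes, named after their values were seen, were the clock and freezing tolerance regulators COR27 (-0.79) and COR28 (-0.59) and the light-stress protein gene ELIP1 (1.26, higher). The call of COR28 ended without treated library 1, treated library 3 or control library 1. BAM3, a beta-amylase, reached 0.52 on the log2 scale, which is under the fold limit.

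Among genes of abscisic acid and drought more were higher than lower. Of 16 tested, 4 were higher and 1 was lower, with a median log2 fold change of 0.24, and the count of higher genes was 2 without control library 3. RD20, a caleosin of drought response (0.72), and GOLS2, a galactinol synthase (1.13), were higher, with adjusted p of 9.56e-05 and 0.00332 in edgeR's test. NCED3, the rate-limiting enzyme of abscisic acid synthesis under drought, was lower (-1.03, adjusted p = 0.00491, edgeR), and the NAC factor RD26 had 0.46, under the fold limit. The other higher genes, named after their values were seen, were the homeobox gene HB7 (0.65) and the phosphatase gene HAI1 (0.74). The call of HB7 ended without treated library 2 or control library 3, and that of HAI1 without treated library 3, control library 1 or control library 3. These lists were chosen with earlier results of these libraries known, so their counts are a description.

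**Figure D5:**
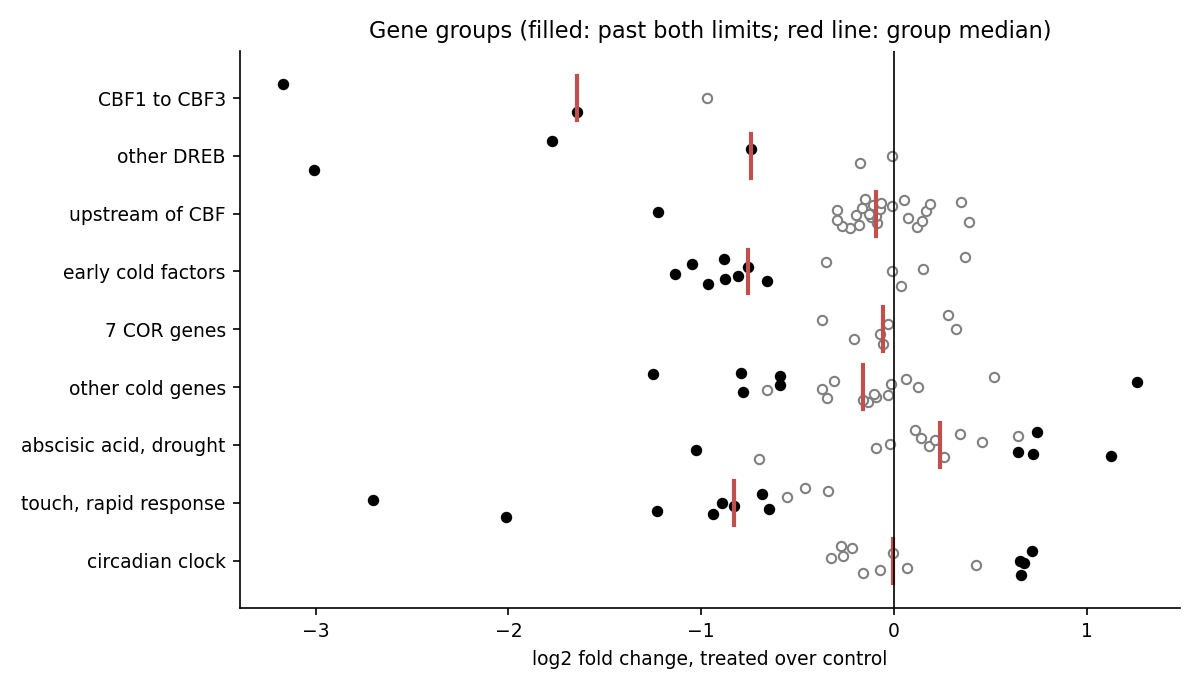
log2 fold change (treated over control) of each tested gene in 9 gene groups, filled where it passed both limits, with a line at the median of each group. The medians are -1.65 for CBF1 to CBF3, -0.76 for the early cold factors and -0.83 for the touch group, beside -0.06 for the 7 COR genes.

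The genes whose log2 CPM over the 6 libraries was most like the mean profile of the CBF genes, out of 18176 candidates, were AT5G59450 and GATL10 (Pearson's r of 0.998 each), WNK9 and BZO2H3 (0.997 each) and AT1G07135 (0.996). Their log2 fold changes were -0.34, -1.04, -0.88, -0.61 and -1.04. For these profiles r mostly carries the difference between the groups. Most like the mean profile of the COR genes were AT2G27740 (0.992), NUDX1 (0.980), MEE29 (0.978), AT1G09200 (0.978) and ACS12 (0.973). AT1G09200, annotated as a histone H3 gene, had 39.6, 81.3 and 63.5 CPM in treated libraries, against 71.7, 63.5 and 58.4 CPM in control libraries, which follows the low treated library 1 and high treated library 2 of the COR genes. All these values share the same libraries and are a description over 6 points.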

How the data were processed

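RNA came from whole seedlings, in 3 biological replicates per group as the paper's methods put it, and p-values measure the spread between these replicates. The authors trimmed reads with Trimmomatic 0.36, used HISAT2 2.1.0 for alignment to TAIR10 and deposited whole-number counts per gene from HTSeq-count. The strand setting and read length are not given in the sources used here, and the labels name more than one library kit. The deposited table holds genes with a CPM of at least 1 in some libraries only. CPM values, log2 fold changes, p-values and FDR columns that the authors deposited from their own comparison were not used.

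The 10 genes and all gene lists were chosen with earlier results of these data known. Named list genes were the up to 4 with the smallest p in each list and all called DREB and upstream genes, with exceptions stated beside them. Counts were tested in R 4.3.3 with edgeR 4.0.16 (filterByExpr, TMM, quasi-likelihood test, no covariate), with Benjamini-Hochberg adjustment. log2 CPM used a prior count of 1. Fold changes are treated over control, with standard errors from the quasi-likelihood test. CPM per kb used the longest annotated transcript of RefSeq TAIR10.1, from which sequences were read with Python 3.11.15. The procedure was tested on simulated data. Alternatives were other scalings, filters, limits and tests (DESeq2 1.42.0, limma-voom 3.58.1), a replicate block, each library left out in turn, and, chosen after the data were seen, 2 promoter windows. Some listed genes (DDF2, HSFC1, HAI3, LEA7, LEA4-5) were not analysed here.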

Additional observations from a re-analysis of the deposited data

How the results depend on the processing

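Of 421 values of results under alternative settings, 396 were rated as unchanged, and 0 reversed a call. Counts were rated unchanged within 1.5 times, mean levels within the SD of their group, and fold changes where the call stayed the same. A change of sign in a gene that was not called also counted as unchanged. Such changes occurred for COR15B, KIN1 and COR47. CBF1 passed both limits in 12 of 12 settings in which it was tested (log2 fold change -3.39 to -3.05) and CBF2 in 13 of 13 (-1.76 to -1.54). CBF3 passed in 3 of 12 (-1.37 to -0.78), and each COR gene in 0 of 13. The genes were chosen with these counts known, and CBF1 was in the table only through its control values, so these passes are a description. Of the 10 genes, 1 passed both limits, in place of 2, when a CPM of at least 1 was required in all 6 libraries, since that filter removed CBF1 from the test. The same filter left 1 of the lower DREB genes outside the cluster, in place of 3. Over all genes, 887 were lower and 1001 higher by the adjusted p alone, and 90 lower and 98 higher at a fold of 2, in place of 302 and 340. Of the listed genes, 12 passed at a fold of 2, in place of 35. Leaving out 1 library gave 248 to 352 lower genes, 257 to 338 higher genes, 2 to 3 of the 10 genes and 31 to 34 listed genes. Of the 35 listed genes called, 27 were called under every alternative fit, and the loss of 1 library ended the call of 7 (ERD7, HB7, RVE8, COR28, DREB2A, CBF4 and HAI1). The C-repeat core lay in 4 COR genes in the 500 bases before the annotated start and in 7 in the 500 bases before the coding start, in place of 2, both windows chosen after the data were seen.

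The labels give both groups the same replicate numbers. Deviations from the group mean had correlations of -0.152, -0.243 and 0.119 between libraries of the same number. Between libraries of different numbers they ran from -0.285 to 0.368. With 3 libraries per group these values cannot decide whether libraries were paired, and the main fit used no pairing. With the replicate number as a block, 265 genes were lower and 282 higher, and 2 of the 10 genes and 35 of the listed genes passed both limits. CBF1, CBF4 and DDF1 rest on few reads in treated libraries, which limits the precision of their fold changes.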
